A study of Mus musculus with 6 samples.

Results

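The 10 granzyme genes of the mouse were followed through the peak lists of Tcf1 and H3K4me3 chromatin immunoprecipitation in splenic natural killer (NK) cells. The members were Gzma, Gzmb, Gzmc, Gzmd, Gzme, Gzmf, Gzmg, Gzmk, Gzmm and Gzmn, matched by gene identifier, and they were 10 of 21887 protein-coding genes of the gene table. The series asked how the transcription factor Tcf1, encoded by Tcf7, bears on NK cell function and granzyme expression. The cells lacked Tcf7 (KO, Tcf7-/-, strain B6.129 with the allele Tcf7Tm1Cle) or carried it intact (WT, Tcf7+/+, strain B6), so genotype and named strain cannot be told apart. Cells of both genotypes were IL-2 activated NK cells, cultured for 5 days with IL-2, a growth factor of these cells, at 500 ng/mL. The age, sex and number of animals behind a library, and whether animals were pooled, are not stated in the sources used here. Each antibody had 1 library per genotype. Differences between genotypes therefore could not be set against replicate spread, and p-values are left out.

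Granzymes are serine proteases that cytotoxic lymphocytes keep in granules and release with the pore-forming protein perforin into target cells. Granzyme A cuts after basic residues, and granzyme B cuts after aspartate and can start apoptosis through caspases and Bid. The chromosome 14 cluster is shared with genes for proteases of other blood cells, cathepsin G and the mast cell proteases. H3K4me3 is a histone mark of promoters that are active or poised for transcription, and it says nothing of protein in the granules.

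The granzymes fell into 2 clusters and 1 single gene. On chromosome 14 (GRCm38/mm10 throughout) 7 members spanned 145 kb from 56117619 to 56262334, in the order Gzme, Gzmd, Gzmg, Gzmn, Gzmf, Gzmc and Gzmb, all on the minus strand. On chromosome 13 Gzma and Gzmk spanned 87.1 kb from 113093824 to 113180965, both on the minus strand. Gzmm stood alone among the granzymes on chromosome 10, from 79689020 to 79695261 on the plus strand.

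Promoter sequences are shown for the members with the most H3K4me3, because the H3K4me3 peaks cover all or nearly all of them. The windows run 5′ to 3′ on the coding strand, from 250 bases before the gene start to 50 after it, and come from RefSeq (GRCm38.p6). Capitals mark matches, on either strand, to letters of factor families known from lymphocytes. The letters searched were CTTTGAT and CTTTGAA (Tcf/Lef), TCACACC (T-box), TGTGGT (Runx), TGANTCA (AP-1), TTCNNNGAA (STAT) and TGACGTCA (the cAMP response element, CRE, added after the sequences were seen). The first lies at chr13:113100932-113101231 and the second at chr14:56262285-56262584, both on the minus strand.
Gzma: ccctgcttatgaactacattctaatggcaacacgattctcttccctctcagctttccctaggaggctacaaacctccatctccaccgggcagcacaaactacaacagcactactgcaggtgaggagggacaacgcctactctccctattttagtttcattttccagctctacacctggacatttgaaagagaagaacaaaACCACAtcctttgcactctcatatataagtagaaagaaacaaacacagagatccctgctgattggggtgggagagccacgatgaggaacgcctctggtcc
Gzmb: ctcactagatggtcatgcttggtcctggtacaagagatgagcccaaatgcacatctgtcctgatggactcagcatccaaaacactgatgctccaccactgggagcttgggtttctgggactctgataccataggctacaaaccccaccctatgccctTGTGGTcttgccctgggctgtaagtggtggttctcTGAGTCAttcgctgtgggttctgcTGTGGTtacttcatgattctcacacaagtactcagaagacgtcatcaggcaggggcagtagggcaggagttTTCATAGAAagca

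The Gzmb window held 2 Runx matches, 1 AP-1 match and, 37 bases after the start, 1 STAT match. The Gzma window held 1 Runx match. Over 21263 promoter windows of protein-coding genes, the Runx letters were found in 14.97%, the AP-1 letters in 6.99% and the STAT letters in 7.69%. Neither window held the Tcf/Lef letters, which stood in 3.22% (CTTTGAT) and 4.54% (CTTTGAA) of all windows. Among the 11 windows of the 10 members (Gzmm has 2 starts), the Tcf/Lef letters CTTTGAA occurred once, in Gzmk, 88 bases before its start. The T-box letters occurred in Gzmk and at the second start of Gzmm, against 3.68% of all windows. No match overlapped another in the member windows.

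A group of 5 members of the chromosome 14 cluster shared nearly the same promoter, and this stretch is shown because the members that carry it differed in H3K4me3. Gzmc, Gzmd and Gzme, the first 3 lines, had a peak in 1 or both genotypes, and Gzmf and Gzmg, the last 2, had none. Each line is 100 bases on the coding strand, which is the minus strand, at chr14:56234661-56234760, chr14:56132601-56132700, chr14:56120634-56120733, chr14:56211436-56211535 and chr14:56159603-56159702. Capitals mark the CRE letters, found in 2.23% of all windows.
Gzmc: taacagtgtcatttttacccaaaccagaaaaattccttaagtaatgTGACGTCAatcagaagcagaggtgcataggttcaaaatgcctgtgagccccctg
Gzmd: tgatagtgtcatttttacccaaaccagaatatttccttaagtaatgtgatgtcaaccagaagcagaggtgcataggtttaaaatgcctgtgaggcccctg
Gzme: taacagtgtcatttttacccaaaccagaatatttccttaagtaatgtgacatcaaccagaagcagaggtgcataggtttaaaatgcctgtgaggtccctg
Gzmf: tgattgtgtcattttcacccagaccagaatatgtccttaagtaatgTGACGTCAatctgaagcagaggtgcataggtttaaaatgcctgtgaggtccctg
Gzmg: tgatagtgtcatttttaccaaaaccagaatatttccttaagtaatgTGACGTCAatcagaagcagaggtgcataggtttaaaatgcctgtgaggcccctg

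The CRE letters stood in Gzmc, marked in both genotypes, and in the unmarked Gzmf and Gzmg, but not in Gzmd and Gzme, marked in WT alone. They were added after the sequences were seen, and a link to the mark was not tested. All 5 windows also held 2 Runx matches, both of which begin upstream of the stretch printed. Between these 5 members the 10 pairs of promoter windows were 84.1 to 93.7% identical over 279 to 300 aligned columns, highest for Gzmd and Gzme. The other 45 pairs of windows, each with a window of Gzma, Gzmb, Gzmk, Gzmm or Gzmn, gave 47.7 to 55.3%. Their longest identical runs were 7 to 12 bases, and windows of unrelated genes were not aligned for comparison. Reads were 100 bases long, and the longest run of identical bases shared by any pair of promoter windows was 76, between Gzmd and Gzmg. Sequence beyond these windows, into which the peaks of Gzmc, Gzmd and Gzme reach, was not compared. The sources used here do not say how reads that fit more than 1 of these copies were placed, so tags of Gzmc, Gzmd, Gzme, Gzmf and Gzmg are less certain than those of Gzma and Gzmb.

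Across the series, the H3K4me3 lists held 7507763 tags in 11074 peaks in KO and 6635272 tags in 13771 peaks in WT. The Tcf1 lists held 129810 tags in 5139 peaks in KO and 74849 tags in 866 peaks in WT. All 6 NK cell markers were marked in both libraries (9758 tags in KO and 7979 in WT), and 0 of 4 B cell, 0 of 4 macrophage and monocyte, 0 of 5 neutrophil and 0 of 5 mast cell markers were. Of the B cell, macrophage and monocyte, and mast cell markers, 6 had no known start and could not be called marked. Of 6 T cell markers none was marked in KO, while Cd3d (35 tags) and Cd3e (64) were marked in WT. Of 3 erythroid markers Klf1 was marked (227 tags in KO and 264 in WT). In KO alone, genes of the Y chromosome were marked (Ddx3y with 116 tags, Eif2s3y with 96, Uty with 80) and none of them in WT. The KO library thus held chromatin of male cells, while none was seen in the WT list. Sex may therefore differ between the libraries, and it cannot be told apart from genotype. The part of these differences in the granzyme values was not tested. Cells that hold more of a mark and a larger share of cells that hold it cannot be told apart in such bulk libraries.

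Among the granzymes marked by H3K4me3, Gzma and Gzmb held more tags than the others in both genotypes. A gene was called marked if a peak came within 1 kb of its start. In KO cells 3 of 10 members were marked, against 48.2% of 17492 protein-coding genes with a listed start. In WT cells 5 of 10 were marked, against 53.7% of all genes. Gzma, Gzmb and Gzmc were marked in both genotypes (48.0% of all genes were), Gzmd and Gzme in WT alone (5.66% of all genes) and none in KO alone (0.166%). Gzmf, Gzmg, Gzmk, Gzmm and Gzmn had no peak within 1 kb in either list.

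**Figure D1:**
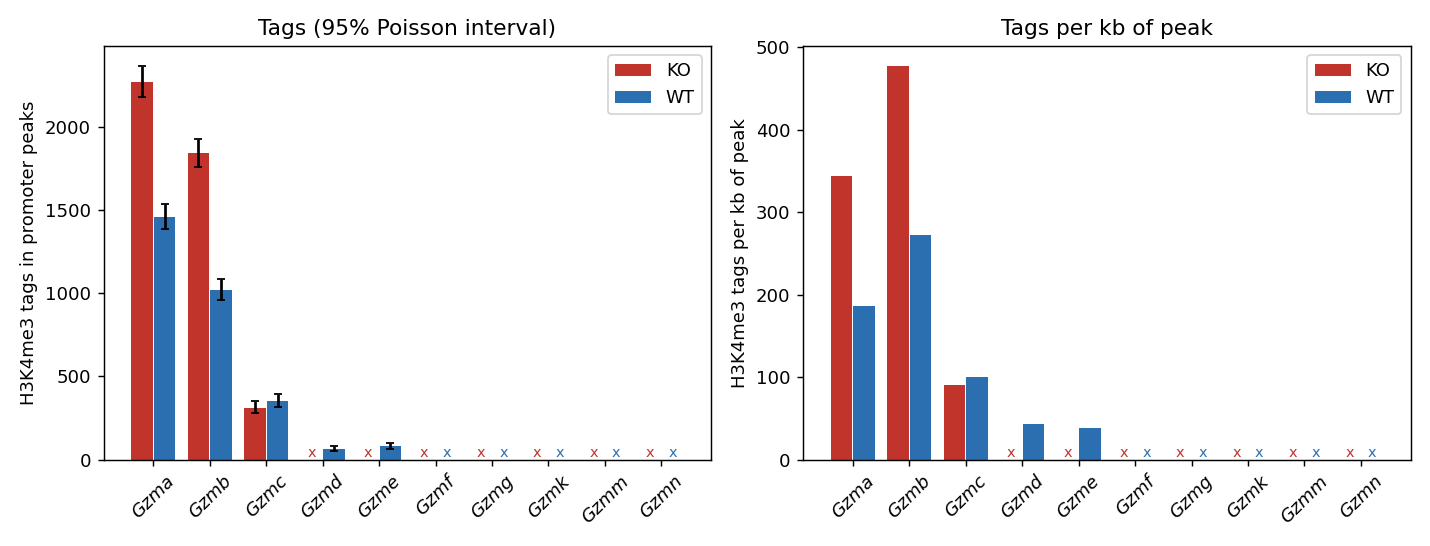
H3K4me3 tags in peaks within 1 kb of the start of each granzyme gene (left, bars with 95% Poisson intervals) and the same tags per kb of peak (right), KO in red and WT in blue, 1 library each, with x where no peak was called. Gzma and Gzmb stand highest on both scales and higher in KO than in WT (2273 and 1461 tags at Gzma, 1842 and 1022 at Gzmb), while Gzmc is slightly lower in KO (313 and 353 tags).

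Gzmb, the caspase-activating granzyme, had 1842 tags (reads counted in the peak) in KO cells, with a 95% Poisson interval of 1759 to 1928. It had 1022 tags in WT cells (interval 960 to 1087). The peak was of nearly the same width in both, 3856 bp in KO and 3757 bp in WT, so it held 478 tags per kb in KO and 272 in WT. Intervals cover counting error only, because the libraries had no replicates. Copies made by PCR could not be told from separate molecules, so the intervals may be too narrow even for counting error.

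Tags are not scaled to depth, and the median gene marked in both libraries had 1.21 times as many tags in KO as in WT. Relative to that gene, the log2 ratio of KO over WT at Gzmb was 0.58 (95% exact counting interval 0.47 to 0.69). This ratio was higher than that of 99.2% of the 8403 genes marked in both. Taken per kb of peak the ratio was 0.49. Of the 8403 genes, 1611 had a counting interval of the ratio by tags above 0, and 1840 had one below 0. An interval that leaves out 0 was therefore common.

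Gzma, the basic-residue protease and the granzyme with the most tags, had 2273 tags in KO (interval 2181 to 2368) and 1461 in WT (interval 1387 to 1538). The KO peak was narrower, 6604 bp against 7858 bp in WT. The ratio relative to the median gene was 0.37 (interval 0.27 to 0.46) by tags and 0.56 by tags per kb, where KO held 344 and WT 186 tags per kb. Its ratio by tags exceeded that of 95.8% of the genes marked in both, and by tags per kb that of 99.2%.

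Gzmc, which encodes a less studied granzyme of mouse lymphocytes, went the other way. It had 313 tags in KO (interval 279 to 350) and 353 in WT (interval 317 to 392), over 3451 bp and 3506 bp. Relative to the median gene the ratio was -0.44 (interval -0.67 to -0.22), and per kb of peak it was -0.47. Only 7.18% of genes marked in both had a lower ratio by tags.

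Thus 2 of the 3 granzymes marked in both genotypes were at least 1.25 times higher in KO than the median gene, and 1 at least 1.25 times lower. Over all genes marked in both, 6.0% were that much higher and 10.7% that much lower. Per kb of peak the same 2 and 1 members passed, against 7.31% and 10.2% of genes. No member reached a ratio of 2 times in either direction. The spread of ratios depended on the number of tags, so the members were set beside genes of like level. Gzma and Gzmb lay among the 2101 genes with the most tags, of which 1.86% were at least 1.25 times higher in KO and whose ratios had an SD of 0.18. Gzmc lay among the 2101 genes with the fewest, of which 26.3% were at least 1.25 times lower and whose ratios had an SD of 0.42.

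**Figure D2:**
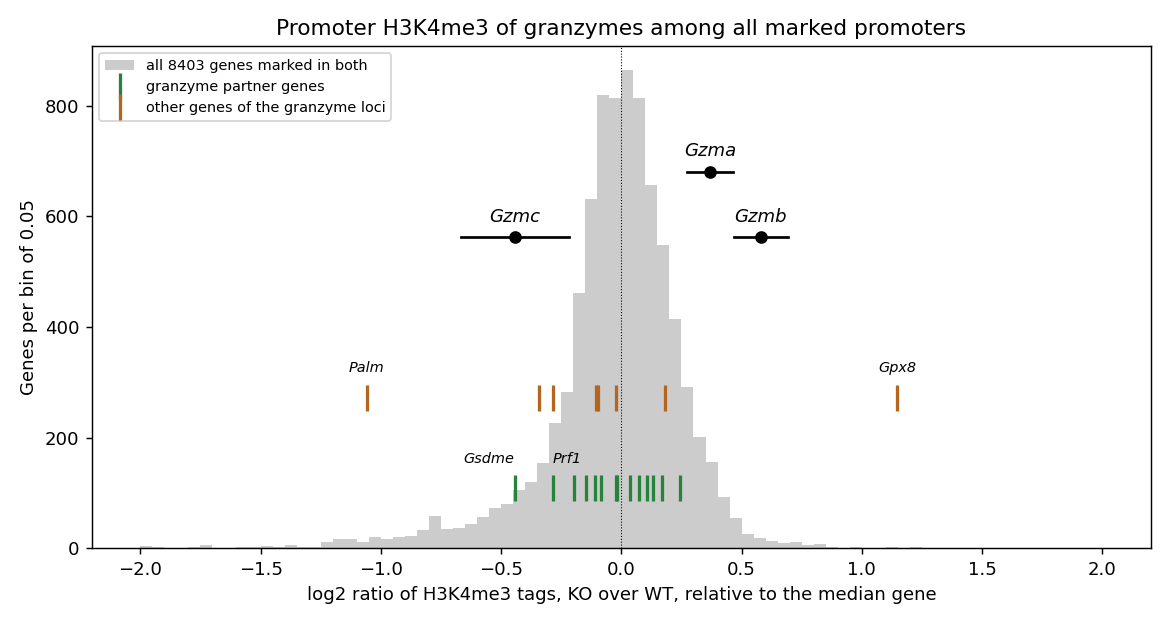
Histogram of the log2 ratio of H3K4me3 tags, KO over WT, relative to the median gene, for 8403 genes marked in both libraries (values past 2 in size are drawn in the outermost bins). Black points with 95% counting intervals are Gzma (0.37), Gzmb (0.58) and Gzmc (-0.44), at freely chosen heights, and ticks are granzyme partner genes (green) and other genes of the granzyme loci (brown), among which Gpx8 and Palm lie farthest out.

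Gzmd and Gzme, whose transcripts are known from uterine NK cells of pregnant mice, had weak peaks in WT and none in KO. The WT peak at Gzmd held 64 tags over 1484 bp (interval 49.3 to 81.7 tags), and that at Gzme held 81 tags over 2087 bp (interval 64.3 to 101). In tags per kb these peaks stood at 43.1 and 38.8, below Gzmc at 101 in the same library. Most WT peaks of this size had no counterpart in KO. Of the 1170 WT peaks that held 60 to 100 tags, 286 met a KO peak over 1 bp or more (24.4%, 95% Wilson interval 22.1 to 27.0%). When the WT list was shortened to the length of the KO list, neither Gzmd nor Gzme was marked. A gene without a peak may still hold tags, which the lists do not give, so no ratio could be formed for the 7 members without a KO peak.

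The order of the marked members by tags per kb was the same at the top in both libraries. In KO it ran Gzmb (478), Gzma (344) and Gzmc (90.7). In WT it ran Gzmb (272), Gzma (186), Gzmc (101), Gzmd (43.1) and Gzme (38.8), and the Poisson intervals of tags at Gzmd and Gzme overlap. Within the KO list the peaks of Gzma and Gzmb held more tags than 98.5% and 96.6% of 11074 peaks. Within the WT list they held more than 96.3% and 88.7% of 13771 peaks. The peak caller's fold enrichment over background, the authors' value, was 30.48 at Gzma in KO and 29.64 in WT, and 26.17 at Gzmb in KO and 23.79 in WT. The median over all peaks was 18.38 in the KO list and 30.82 in the WT list. Gzma and Gzmb thus exceeded 95.9% and 86.7% of KO peaks by fold, and 48.6% and 41.1% of WT peaks, in lists of unequal length.

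The mark at Gzma and Gzmb lay over the gene rather than around its start. The Gzmb peak covered 99.9% of the 3.5 kb gene in KO and all of it in WT. The Gzma peak covered 77.6% of the 7.16 kb gene in KO and 94.1% in WT. Such cover is not rare among short genes. Of 1787 genes under 10 kb marked in both and with 1 start, 16.1% had at least 75% of their length inside KO peaks and 17.1% inside WT peaks.

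The summits of these peaks also lay inside the gene. At Gzmb the summit lay 1.535 kb into the gene in KO and 1.915 kb in WT. At Gzma it lay 1.318 kb into the gene in KO and 1.371 kb in WT. Gzmc had its summit near the start, 0.159 kb into the gene in KO and 0.158 kb in WT. Gzmd and Gzme, in WT alone, had theirs at 0.543 and 1.124 kb.

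A summit at least 1 kb into the gene was thus seen for 2 of 3 marked members in KO and 3 of 5 in WT. Among genes with 1 start and 1 peak the share was 1.03% of 6629 in KO and 1.23% of 6604 in WT, and the median summit lay 0.241 kb into the gene in KO and 0.246 kb in WT. This measure was chosen after the values were seen. The distances rest on the RefSeq starts, and the gene span of Gzmc reaches farther upstream than the start used here.

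**Figure D3:**
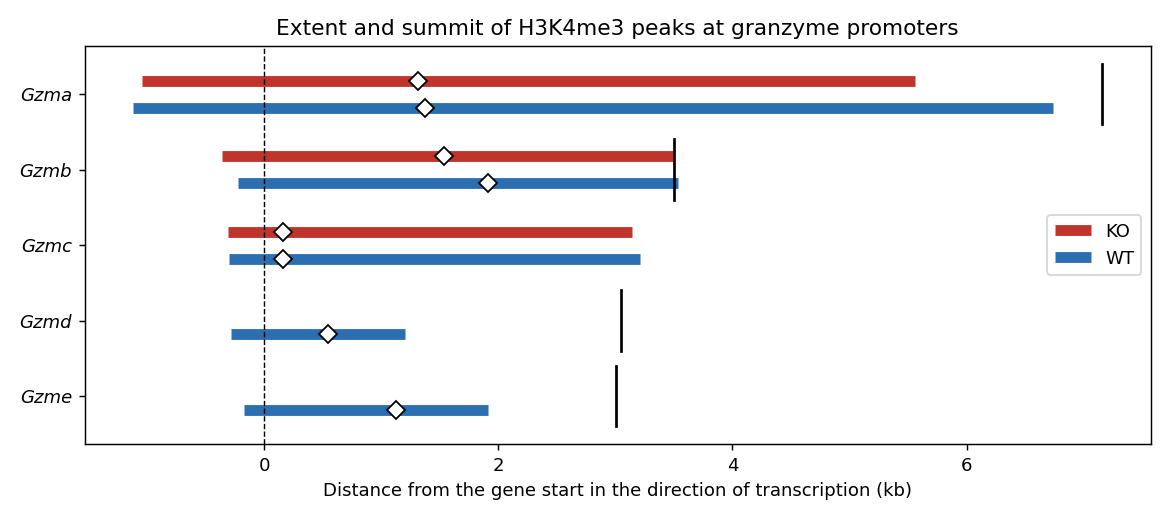
Extent (bars) and summit (diamonds) of the H3K4me3 peak at each marked granzyme promoter, KO in red above WT in blue, as distance from the gene start in kb in the direction of transcription, with the gene end as a black line (not drawn for Gzmc). The summits of Gzma and Gzmb lie 1.318 to 1.915 kb inside the gene, while those of Gzmc lie 0.158 and 0.159 kb from the start.

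The loci were then read as a whole, over regions merged from overlapping peaks of both H3K4me3 lists, with 50 kb on each side of the granzymes. The chromosome 14 cluster held 4 regions, each at the promoter of a granzyme, and no other. KO had 2155 tags over 7.307 kb of peak there and WT had 1520 tags over 10.834 kb. Of the KO tags 1842 were at Gzmb, and of the WT tags 1022. Of the other 6 protein-coding genes within 100 kb, none was marked in either genotype. They were Ctsg, encoding cathepsin G of neutrophils, and Mcpt1, Mcpt2, Mcpt4, Mcpt8 and Mcpt9, encoding proteases of mast cells and basophils. The start of Mcpt2 was not known, and its nearest peak lay 120 kb away in KO and 74.1 kb away in WT.

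The chromosome 13 locus held 3 regions within 50 kb, at Gzma, at Gpx8 and at a site upstream of Gzma. The last, from 113104895 to 113106814, was centred 4.87 kb upstream of the Gzma start, inside the span of Cdc20b, a gene that lies across Gzma on the other strand. It held 95 tags in KO and 63 in WT, a ratio of 0.32 relative to the median gene (interval -0.15 to 0.81), so its difference was within counting error. The KO peak there had a false discovery rate (FDR), the authors' value, of 22.7%, against 0.12% for the WT peak. Gzmk, which encodes a protease that like granzyme A cuts after basic residues, had no H3K4me3 peak within 50 kb in either genotype.

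Gpx8, encoding a glutathione peroxidase of the endoplasmic reticulum, had its region centred 55.5 kb beyond the start of Gzma. It had 296 tags in KO and 111 in WT (ratio 1.15, interval 0.83 to 1.47), at least 2 times higher in KO, as were 0.0952% of genes marked in both. Its KO peak was wider, 3042 bp against 1838 bp, and per kb of peak the ratio was 0.36. Cdc20b was marked in WT alone, with 105 tags.

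Gzmm, encoding a protease that prefers methionine and similar residues, was unmarked at both of its starts although its neighbours were marked. The nearest region was that of Cdc34, encoding a ubiquitin-conjugating enzyme, centred 6.58 kb from the first start of Gzmm, with 1281 tags in KO and 937 in WT (ratio 0.18). On the other side, Bsg, encoding the membrane protein basigin, had 619 tags in KO and 626 in WT (ratio -0.29, but 0.20 per kb of peak).

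Of the 14 other protein-coding genes within 100 kb of Gzmm, 12 had a known start. Of those 12, 7 were marked in both genotypes, against 48.0% of all genes with a listed start. Odf3l2 and Prss57 had no known start and could not be called marked. Of these 7, 1 had a ratio above 0 and 6 had one below. Over all genes marked in both, 4201 lay above 0 and 4201 below. The counting interval lay above 0 for 1 of the 7 and below 0 for 3, and it included 0 at Tpgs1, Polrmt and Rnf126. Per kb of peak Cdc34, Bsg and Polrmt lay above 0 and the rest of the 7 below, so the split depended on peak width. Tpgs1, encoding a tubulin polyglutamylase subunit, had 771 tags in KO and 650 in WT (-0.02). Palm, encoding a membrane-bound protein of the paralemmin family, had 107 tags in KO and 185 in WT (-1.06, interval -1.42 to -0.71), and 1.34% of genes marked in both were at least 2 times lower in KO. The ratios of Hcn2, Polrmt and Rnf126 were -0.34, -0.10 and -0.10, and that of Polrmt was 0.08 per kb of peak.

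**Figure D4:**
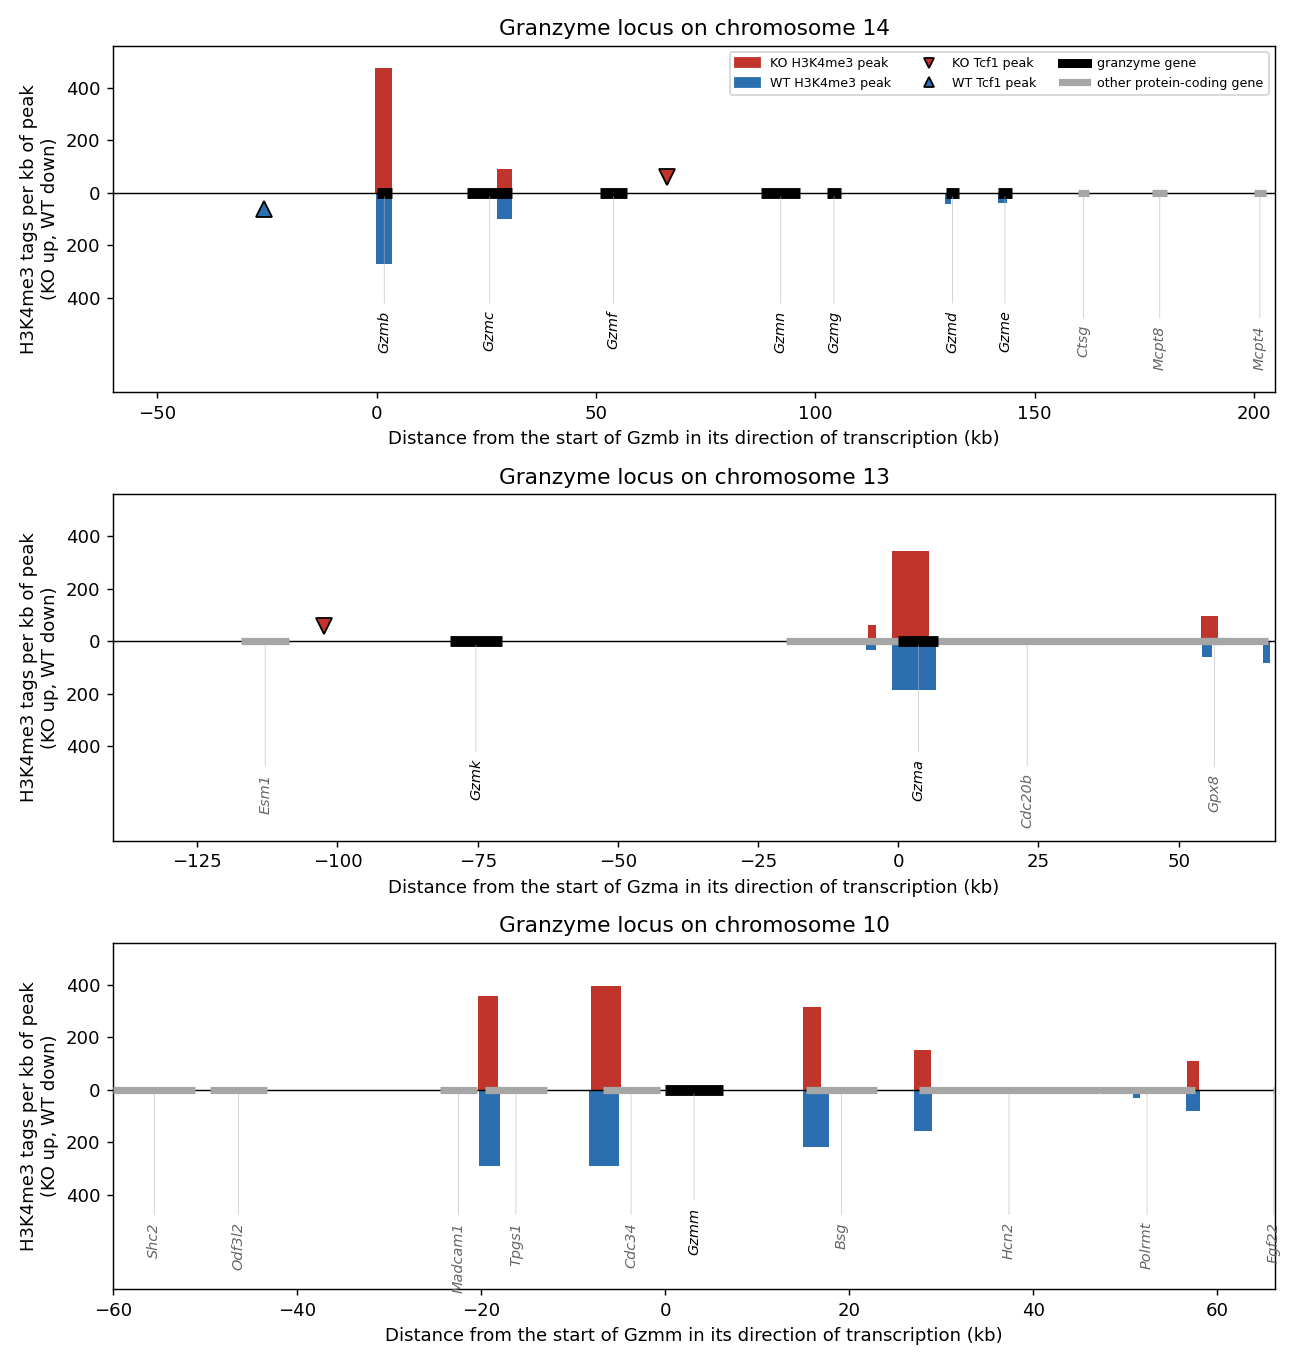
Peaks across the granzyme loci on chromosomes 14, 13 and 10, as distance in kb from the start of Gzmb, Gzma and Gzmm in the direction of transcription. Bar height gives H3K4me3 tags per kb of peak, KO upward in red and WT downward in blue, triangles mark Tcf1 peaks (height without meaning), and black bars are granzyme genes. Gzmb and Gzma carry the tall peaks of their clusters, Gzmm has none between marked neighbours, and all 3 Tcf1 peaks lie away from H3K4me3 peaks.

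The Tcf1 antibody gave 3 peaks within 50 kb of a granzyme, 2 in KO cells and 1 in WT cells. Since KO cells carry the Tcf7 deletion, the KO list serves as background for the antibody. At Tcf7 itself, no Tcf1 peak was called in KO, against 1 of 123 tags in WT.

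The KO peak of the chromosome 14 cluster lay outside any gene, from 56195944 to 56196378, 8.885 kb beyond the end of Gzmf, with 19 tags (interval 11.4 to 29.7) and an FDR of 100%, the authors' value. The KO peak on chromosome 13 lay from 113203193 to 113203564, 22.4 kb upstream of the RefSeq start of Gzmk, with 15 tags (interval 8.40 to 24.7) and an FDR of 100%. The list's own annotation puts this peak inside Gzmk, because its Ensembl gene span reaches past it. Neither overlapped an H3K4me3 peak of either genotype.

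In WT the peak spanned 56287808 to 56288339 of chromosome 14, which is 25.8 kb ahead of the Gzmb start and in no gene. It held 36 tags (interval 25.2 to 49.8), with a score of 55.1, a fold enrichment of 4.57 and an FDR of 27.0%, the authors' values. Within the WT Tcf1 list 35.9% of 866 peaks had a lower score. Its nearest H3K4me3 peak was 25.1 kb away, and it overlapped no KO Tcf1 peak.

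Counted by gene, 5 of 10 granzymes lay within 50 kb of a KO Tcf1 peak (Gzmc, Gzmf, Gzmg and Gzmn through 1 peak, Gzmk through the other), against 20.8% of all genes. Within 50 kb of a WT Tcf1 peak lay 2 of 10 (Gzmb and Gzmc, through 1 peak), against 4.44% of all genes. Genes of a cluster share peaks, so these counts rest on 2 peaks and 1 peak. No Tcf1 peak of either list reached a score of 100 within 50 kb. The nearest WT peak to Gzma was 515 kb away and the nearest to Gzmm 1554 kb away.

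Genes that act with granzymes were read from a list of 16. They cover delivery, granule storage, activation, inhibition, uptake and substrates. Of these, 14 were marked in both genotypes, where 48.0% of all genes were, 6 with a ratio above 0 and 8 below, with a median of -0.02, where the median over all genes is 0 by construction. None was at least 1.25 times higher in KO, against 6.0% of all genes marked in both, and 1, Gsdme, was that much lower, against 10.7%. Ctsh and Serpinb9b were marked in neither library (the start of Ctsh was not known, and its nearest peak was 36.3 kb away).

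Prf1, encoding perforin, had 1499 tags in KO and 1516 in WT (ratio -0.29, interval -0.39 to -0.18), with peaks of 6875 bp and 7765 bp. It was thus lower relative to the median gene where Gzma and Gzmb were higher, though neither difference was tested against the other. Srgn, encoding the proteoglycan that holds granzymes in granules, had 785 tags in KO and 662 in WT (-0.02). Unc13d, encoding a protein of granule release, had 1193 tags in KO and 919 in WT (0.11).

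Ctsc, encoding the dipeptidyl peptidase that activates granzymes, had 568 tags in KO and 419 in WT (0.17, interval -0.02 to 0.36). M6pr, encoding a mannose 6-phosphate receptor that carries enzymes to lysosomes, had 802 tags in KO and 562 in WT (0.24, interval 0.09 to 0.40). Serpinb9, encoding the mouse inhibitor of granzyme B, had 1087 tags in KO and 823 in WT (0.13). Igf2r, encoding the other mannose 6-phosphate receptor, had a ratio of -0.20, and Gnptab, whose enzyme adds that tag, one of 0.07.

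Gsdme, encoding a gasdermin that granzyme B can cleave, had 171 tags in KO and 193 in WT (-0.44, interval -0.75 to -0.14). Bid, encoding another substrate of granzyme B, had a ratio of -0.02. Gsdmd, encoding a related gasdermin, had -0.11. The serpins Serpinb6a and Serpinb6b had -0.08 and -0.15. Several of these signs depend on peak width. Per kb of peak the ratio was -0.03 at M6pr, -0.16 at Gnptab, 0.07 at Igf2r, 0.10 at Serpinb6b, 0.11 at Bid and 0.22 at Srgn, each on the other side of the median gene. Gsdme, at -0.30 per kb, was then no longer at least 1.25 times lower, and 0 partner genes were in either direction.

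The genes most like each granzyme were sought over 4 values, log2 tags and log2 peak width in KO and WT, among 8403 genes. Nearest to Gzma was Zeb2, encoding a transcription factor of NK cell maturation, at a Euclidean distance of 0.33 (2334 tags in KO and 1678 in WT), then Arhgef1 (0.33) and Rnf44 (0.39). Nearest to Gzmb were Hspd1 and Hspe1 (0.21 each), chaperonin genes that share a promoter peak of 1680 tags in KO and 1140 in WT, then Nrros (0.28). Nearest to Gzmc were Cisd3 (0.25), Tmem95 and Kctd11 (0.26 each, sharing a peak). The likeness rests on 2 libraries and mostly on level and width. The ratios of these genes ran from -0.60 to 0.37, but the tags that make a ratio also served to choose the genes.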

How the data were processed

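Tcf1 and H3K4me3 ChIP libraries of both genotypes were analysed, 1 per group, and input libraries were not analysed here. Per the submitters' processing notes, the tools were MACS 1.4 and Bowtie2 2.1.0. Of the builds listed there, GRCh37 is human and was not used here, and the peaks were read on mm10 (GRCm38). Settings of the peak caller are not given in the sources used here. The deposited lists hold 1 row per peak and gene feature and were reduced to distinct peaks. Tags are a deposited count of reads per peak, made by the authors' peak caller and not scaled to depth. The deposited score is 10 times the negative log10 p-value, the deposited fold enrichment is a ratio over local background, and the deposited FDR is in percent, per the file headers. Starts count from 0 and were moved to count from 1. Total sequencing depth is unknown here.

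Gene spans and starts came from RefSeq tables (GRCm38.p6), with 17492 genes as background. For 4 partner genes and Bsg the start came from the Ensembl features in the lists. Tags of all peaks within 1 kb of a start were summed, and log2(KO/WT) was centred on the median gene marked in both. Intervals of ratios are exact binomial (Clopper-Pearson) on the KO share of tags. Named were all members, list members with values, and the 3 nearest genes per member. Members, lists and rules were chosen with earlier results of these data known. The centred ratio and its interval were tested on simulated tags that had counting error alone. The search for peaks near a start was tested on made-up positions, and the other steps were not tested on simulated data. Calculations used scipy 1.17.1, pandas 2.3.3 and numpy 2.4.6 under Python 3.11.15, with figures from matplotlib 3.10.9. Values of some single genes of the partner and marker lists are not reported here.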

Additional observations from a re-analysis of the deposited data

How the results depend on the processing

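With 1 library per group, no replicate could be left out. No paired analysis was possible because each group has 1 library. The ratios of Gzma, Gzmb and Gzmc kept their sign and their side of the 1.25-fold limit under promoter windows of 0 and 2.5 kb, tags per kb of peak, merged regions, scaling by list totals and an FDR of at most 1%. Of 18 such values 17 stayed within the counting interval, and the exception was Gzma per kb of peak at 0.56. The tags of these 3 genes were the same under every setting. Windows, merged regions, list totals and the FDR limit could therefore change only the value used for centring, and they say little about the tags themselves. Scaled by list totals, the 3 ratios were 0.46, 0.67 and -0.35. With lists of equal length 3 granzymes were marked in WT, and with scores of at least 100 there were 4. Of the Tcf1 peaks, 1 in KO and 0 in WT lay within 10 kb, 0 in either list had a score of at least 100, and 0 in KO and 1 in WT had an FDR of at most 50%. Per kb of peak, 4 other genes of the loci lay above the median gene, against 2 by tags, and the cause was not tested. Counts of merged regions, and of partner genes above and below the median gene, stayed within 1.5 times under the alternatives run for them, while partner genes at least 1.25 times lower in KO numbered 1 by tags and 0 per kb of peak. The lists give no tags outside peaks, so the KO level at Gzmd and Gzme is unknown.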

Other observations

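Beyond the 50 kb around Gzma and Gzmk, 3 further H3K4me3 regions lay between 50 and 100 kb on the side of Gpx8, and all 3 were called in WT alone. They lay over the start of Cdc20b, a relative of the cell cycle gene Cdc20 (chromosome 13, 113034608 to 113035890, 105 tags), 3.17 kb from that start (113031624 to 113032793, 129 tags) and 22.1 kb from it (113012760 to 113013840, 40 tags). The peaks at Gpx8 and Gzma between them and Gzmk had more tags in KO. At the same distance from Gzmm, all 3 regions were called in both genotypes, with 125, 1240 and 185 tags in WT. Over all genes 5.66% were marked in WT alone, as Cdc20b was. The share of all regions called in WT alone was not computed. In WT the 3 regions near Cdc20b held 40 to 129 tags and those near Gzmm 125 to 1240, so the 2 sets differed in level but overlapped. Whether level bears on these calls was not tested. These values were singled out after they were seen.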
